A study of Homo sapiens with 3 samples.

Results

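The genes described here are the matrix metalloproteases (MMP), the membrane-bound ADAM proteases, the secreted ADAMTS proteases and their ADAMTS-like relatives (ADAMTSL), and their inhibitors, the TIMP proteins and RECK. They were found by gene symbol alone, without use of expression, and number 71 of the 18345 genes in each deposited table: 22 MMP, 20 ADAM, 19 ADAMTS and 5 ADAMTSL genes, 4 TIMP genes and RECK. RNA was sequenced from the human embryonic stem cell line H1, taken through hematopoietic differentiation with 40 ng/ml activin A plus 50 ng/ml BMP4 for 2 days, then 40 ng/ml VEGF plus 50 ng/ml bFGF for 3 days. All 3 samples are labelled day 4 and are CD31+CD34+ cells that the labels call HEPs; they differ in surface CD105, or endoglin, which was negative, low or high. These populations are called CD105neg, CD105low and CD105high below. Each has 1 library, so no difference below has a replicate check, no test was possible, and the labels do not say whether the samples came from 1 culture.

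MMPs are zinc proteases that cut collagens and other matrix proteins, and most are secreted, while the membrane-type MMPs stay at the cell surface. ADAM proteases cut the outer part from membrane proteins, a process called shedding. ADAMTS proteases trim proteoglycans and procollagens in the matrix, and ADAMTS13 cuts von Willebrand factor. TIMP proteins are secreted and block the active site, and RECK is an inhibitor anchored in the membrane. In endothelium these enzymes are known for the breakdown of basement membrane during sprouting and for shedding of junction proteins and receptors; MMP14 is known to release the outer part of endoglin, the protein on which these cells were sorted.

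The deposited values carry no named unit and were treated as FPKM, a count of fragments per length of transcript and per size of the library, so that levels can be compared between genes. They summed to between 265618 and 289229 per library. If the unit holds, the step between the lowest values puts the depth of CD105low at 1.11 times and that of CD105high at 1.03 times the depth of CD105neg. ENG, which encodes endoglin, stood at 2.12, 8.56 and 13.8 FPKM in CD105neg, CD105low and CD105high, PECAM1 (CD31) at 29.9, 41.9 and 50.1 FPKM, and CD34 at 21.0, 39.2 and 43.2 FPKM. ENG thus followed the sort, although the header of the CD105neg value column reads as CD105 positive. All 12 markers of the endothelial list reached 1 FPKM in at least 1 library, and the list summed to 1291, 1739 and 1785 FPKM. In CD105neg, ROBO4 (0.587 FPKM) and CLDN5 (0.677 FPKM) were below 1 FPKM. Some genes listed as markers of other cell types were detected too, and which cells they came from was not tested. Of 10 leukocyte markers, 6 (PTPRC and MPO among them) stayed below 1 FPKM in every library, while LAPTM5 stood at 51.6, 44.1 and 35.5 FPKM. Of 13 mesenchymal and mural markers, only DCN, LUM and POSTN stayed below 1 FPKM, while COL1A2 stood at 216, 199 and 177 FPKM and RGS5 at 114, 124 and 111 FPKM.

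Of the 71 genes, 35 reached 1 FPKM in at least 1 library and are called measured; 28 of them did so in all 3 libraries, 2 in CD105neg and CD105low, and 5 in a single library. The other 36 stayed below 1 FPKM throughout, and 9 of these were listed at 0 in all 3 libraries. Measured were 7 of 22 MMP genes, 9 of 20 ADAM genes, 13 of 19 ADAMTS genes, 2 of 5 ADAMTSL genes, 3 of 4 TIMP genes and RECK. The highest gene was MMP14, at 158 FPKM in CD105high, followed over all libraries by TIMP1 and ADAMTS9. By its level MMP14 was number 500 of the 18345 genes in CD105neg, number 290 in CD105low and number 240 in CD105high.

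**Figure D1:**
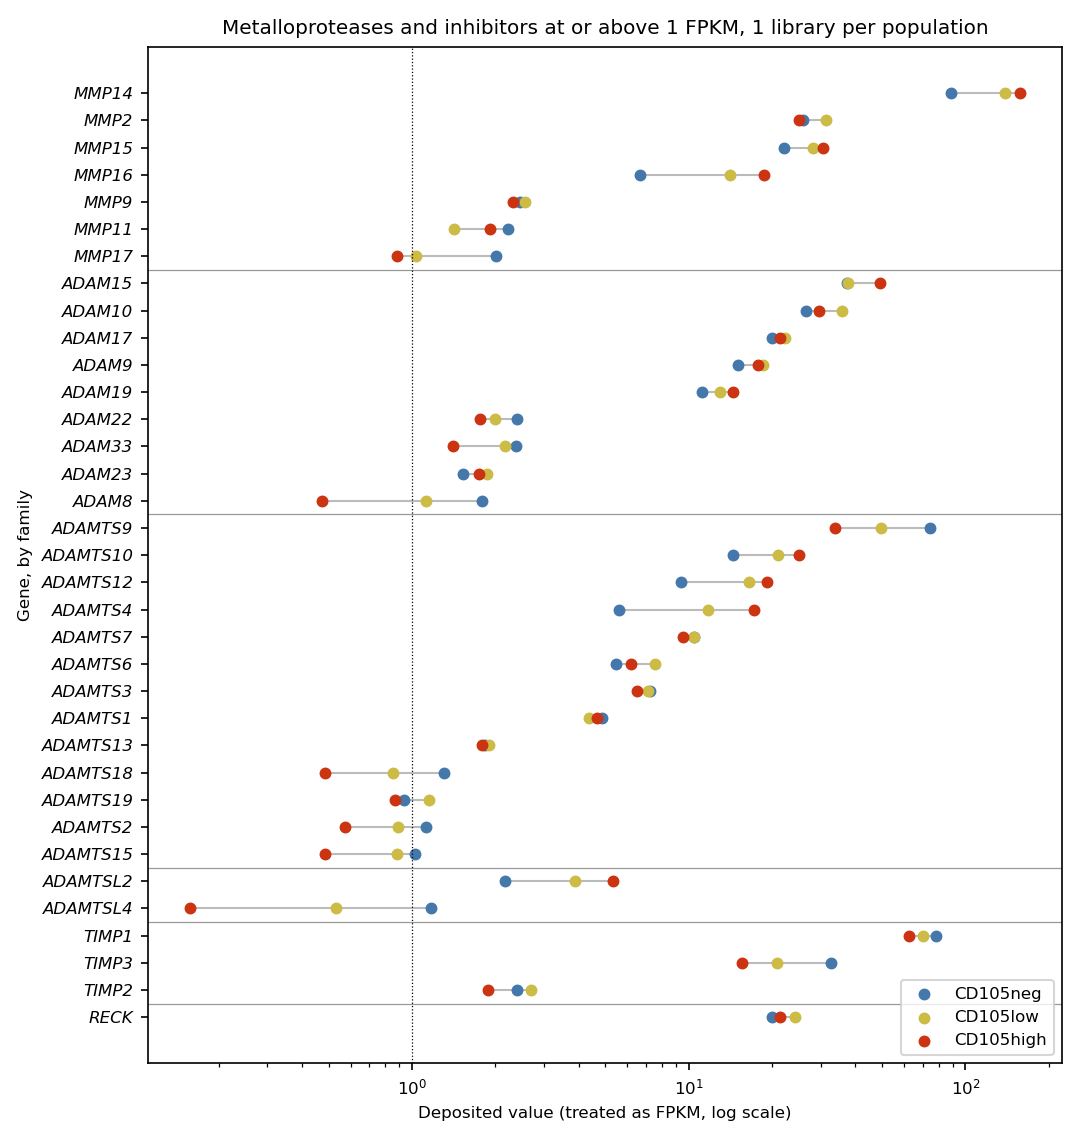
Deposited values (horizontal axis, log scale, treated as FPKM) of the 35 measured genes by family, 1 point for each library; the dotted line marks 1 FPKM and grey bars join the lowest and highest library. MMP14, MMP16, ADAMTS4, ADAMTS10, ADAMTS12 and ADAMTSL2 run from CD105neg at the left to CD105high at the right, and ADAMTS9 and TIMP3 run the other way.

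Membrane-type MMPs made up most of the MMP transcript, and 2 of them were higher in the CD105low and CD105high libraries. MMP14 (ENSG00000157227.12), also called MT1-MMP, cleaves collagen at the cell surface and activates the MMP2 proenzyme. In CD105neg it stood at 89.0 FPKM, in CD105low at 139 FPKM and in CD105high at 158 FPKM (log2 fold change of the value + 1 for CD105high against CD105neg, 0.82). MMP16 (ENSG00000156103.15), a close relative named MT3-MMP, stood at 6.68, 14.1 and 18.8 FPKM in the same order (1.37). MMP15, or MT2-MMP, stood at 22.1, 28.1 and 30.5 FPKM, and its log2 fold change of 0.45 did not reach 1.5-fold, though it did with each library scaled to an equal total (0.59). MMP17, which is held in the membrane by a lipid anchor, went the other way at a low level, with 2.01, 1.04 and 0.89 FPKM (-0.67). MMP24 and MMP25, the remaining membrane-type genes, stayed at or below 0.302 FPKM.

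The gelatinases, which cut denatured and type IV collagen, were present at nearly level values. MMP2 stood at 25.8, 31.3 and 25.1 FPKM in CD105neg, CD105low and CD105high, highest in CD105low. MMP9 stood at 2.46, 2.56 and 2.31 FPKM, far below MMP2, and 12.1% of its sampled transcript sequence also occurs in another gene, mostly in the antisense gene SLC12A5-AS1. MMP11, a stromelysin that furin activates inside the cell, stood at 2.23, 1.42 and 1.92 FPKM, lowest in CD105low. None of the 3 reached 1.5-fold in any of the 3 pairs of libraries.

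The collagenases, the matrilysins and the stromelysins other than MMP11 all stayed below 1 FPKM, and most of these genes lie together. In the RefSeq gene order, MMP7, MMP20, MMP27, MMP8, MMP10, MMP1, MMP3, MMP12 and MMP13 follow each other on chromosome 11 with no other protein-coding gene between them. Their highest value was 0.402 FPKM, for MMP1 in CD105high, and 6 of the 9 were listed at 0 in every library. None of the measured genes belongs to this row. Depth limits what can be said of such values, since no counting interval can be given without read counts.

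The sequences before the gene starts were set beside these levels. RefSeq windows (GRCh38.p14) were found for 44 of the 71 genes, and the 250 bases before the start were searched on both strands for the GC box GGGCGG, the TATA box TATAAA and the AP-1 motif TGANTCA. The GC box occurred in 42.6%, the TATA box in 10.7% and the AP-1 motif in 6.57% of all 35116 windows of that length. The GC box was found for 22 of 24 measured genes with a window and for 8 of 20 genes below 1 FPKM. Among all genes of the tables with a window, 75.8% of the measured and 38.4% of the others had it, a split in the same direction. The TATA box was found for 2 of the 24 measured genes, ADAMTS10 and ADAMTSL2, and for 6 of the 20 others, MMP7, MMP8, MMP10, MMP20, MMP21 and MMP26, against 7.55% and 19.4% of all genes. The AP-1 motif was found for 1 of the 24 measured genes, ADAMTS12, and for 3 of the 20 others, MMP7, MMP10 and MMP20. Among all genes of the tables with a window, 5.72% of the measured and 9.93% of the others had it. For MMP7, MMP10 and MMP20 of the chromosome 11 row both a TATA box and an AP-1 motif were thus found. A gene was counted if any of its windows held the motif, so for MMP20 both need not lie in 1 window. The share of all genes with both motifs, and the number of genes of the row with a window, were not counted. This observation therefore has no background beside it. A match describes these letters only.

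The windows of 3 expressed genes and of 2 genes of the chromosome 11 row are given because they show this contrast (motifs and windows were chosen after the values were seen), 5′ to 3′ in the direction of the gene, with motif matches in capitals. They lie at chr14:22836335-22836584 on the plus strand (MMP14), chr22:32801455-32801704 on the plus strand (TIMP3), chr5:33891991-33892240 on the minus strand (ADAMTS12), chr11:102530748-102530997 on the minus strand (MMP7) and chr11:102780629-102780878 on the minus strand (MMP10) of GRCh38.p14.
MMP14: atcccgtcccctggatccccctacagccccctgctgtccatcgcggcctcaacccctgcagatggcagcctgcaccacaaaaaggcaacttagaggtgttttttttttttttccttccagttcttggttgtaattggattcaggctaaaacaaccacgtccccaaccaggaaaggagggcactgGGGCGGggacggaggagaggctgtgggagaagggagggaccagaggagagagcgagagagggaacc
TIMP3: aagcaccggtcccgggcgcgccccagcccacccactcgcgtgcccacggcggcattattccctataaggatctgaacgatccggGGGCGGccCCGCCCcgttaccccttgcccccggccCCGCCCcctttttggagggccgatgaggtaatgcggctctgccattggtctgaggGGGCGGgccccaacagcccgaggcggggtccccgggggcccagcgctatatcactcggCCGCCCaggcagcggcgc
ADAMTS12: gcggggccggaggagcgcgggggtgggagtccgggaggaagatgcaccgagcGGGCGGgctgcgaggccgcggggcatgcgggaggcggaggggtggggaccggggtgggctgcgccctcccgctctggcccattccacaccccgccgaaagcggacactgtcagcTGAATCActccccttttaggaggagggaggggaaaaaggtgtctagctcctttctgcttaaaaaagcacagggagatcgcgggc
MMP7: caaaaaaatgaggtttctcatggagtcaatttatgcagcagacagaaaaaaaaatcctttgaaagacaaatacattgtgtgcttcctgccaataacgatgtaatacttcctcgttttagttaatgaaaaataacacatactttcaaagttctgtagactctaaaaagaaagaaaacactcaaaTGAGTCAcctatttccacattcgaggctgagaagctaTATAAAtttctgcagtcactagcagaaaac
MMP10: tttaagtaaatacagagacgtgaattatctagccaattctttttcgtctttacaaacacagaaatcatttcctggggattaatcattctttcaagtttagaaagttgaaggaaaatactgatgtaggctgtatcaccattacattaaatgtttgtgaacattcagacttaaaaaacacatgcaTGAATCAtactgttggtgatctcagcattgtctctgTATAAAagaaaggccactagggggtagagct
The MMP14 window holds 1 GC box, the TIMP3 window 5, and the ADAMTS12 window 1 GC box and 1 AP-1 motif. The MMP7 and MMP10 windows each hold 1 AP-1 motif and 1 TATA box and no GC box. No matches overlap each other in these 5 windows. MMP14 and TIMP3, whose levels ran in opposite directions across the libraries, both hold the GC box.

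Among ADAM genes the sheddases with the widest known roles were well expressed and nearly level. ADAM15 (ENSG00000143537.13), an ADAM of endothelial cells that binds integrins, was the highest, at 37.2, 37.6 and 49.3 FPKM in CD105neg, CD105low and CD105high. ADAM10, which makes the first cut in activated Notch receptors and sheds the endothelial cadherin encoded by CDH5, stood at 26.6, 35.8 and 29.5 FPKM, highest in CD105low. ADAM17, which releases TNF and ligands of the EGF receptor, stood at 20.1, 22.3 and 21.4 FPKM, and 10.5% of its sampled sequence occurs in another gene. ADAM9, another sheddase, stood at 15.1, 18.5 and 17.8 FPKM. ADAM19, known for the processing of neuregulins, stood at 11.2, 12.9 and 14.4 FPKM. All 5 lay within 1.5-fold in every pair of libraries.

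The remaining measured ADAM genes were low. ADAM8, a protease of leukocytes, stood at 1.79, 1.13 and 0.473 FPKM in CD105neg, CD105low and CD105high (log2 fold change for CD105high against CD105neg, -0.92). ADAM33 stood at 2.37, 2.18 and 1.41 FPKM (-0.49). ADAM22 and ADAM23, which lack protease activity and are known as receptors of LGI proteins in the brain, stood at 2.39, 2.00 and 1.76 FPKM and at 1.53, 1.86 and 1.75 FPKM. Only ADAM8 of these 4 was 1.5-fold apart, and that between CD105high and CD105neg. The other 11 ADAM genes stayed at or below 0.804 FPKM, the level of ADAM12 in CD105high.

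The ADAMTS genes differed across the libraries in both directions. ADAMTS4 (ENSG00000158859.9), an aggrecanase that also cuts versican, stood at 5.60, 11.8 and 17.2 FPKM in CD105neg, CD105low and CD105high, and its log2 fold change of 1.46 for CD105high against CD105neg was the highest of the 35. ADAMTS9 (ENSG00000163638.13), also a versican protease, stood at 74.6, 49.7 and 33.9 FPKM, and its log2 fold change of -1.12 was the lowest on the value + 1 scale. That place depends on the pseudocount, since with 0.1 in place of 1 the low genes ADAMTSL4 (-2.31), ADAM8 (-1.72) and ADAMTS18 (-1.26) lay below ADAMTS9 (-1.14), and after scaling ADAMTSL4 (-1.67) and ADAM8 (-1.37) lay below it (-1.01). These 2 proteases of the same substrate class therefore ran in opposite orders across the libraries, and ADAMTS9 was the more abundant of them in each. Of the other proteoglycan proteases, ADAMTS1 stood at 4.85, 4.37 and 4.65 FPKM and ADAMTS15 at 1.03, 0.886 and 0.484 FPKM, while ADAMTS5, ADAMTS8 and ADAMTS20 stayed below 1 FPKM.

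Higher in CD105high as well were ADAMTS12 and ADAMTS10. ADAMTS12, which cleaves the cartilage protein COMP, stood at 9.40, 16.5 and 19.1 FPKM (log2 fold change for CD105high against CD105neg, 0.95), and ADAMTS10, which acts on fibrillin microfibrils, at 14.4, 21.1 and 25.1 FPKM (0.76). ADAMTS7, a relative of ADAMTS12 that also cleaves COMP, was level at 10.4, 10.5 and 9.51 FPKM; 14.0% of its sampled sequence occurs elsewhere, mostly in the pseudogene ADAMTS7P3. ADAMTS6 stood at 5.48, 7.54 and 6.20 FPKM. Of the procollagen proteases, ADAMTS3, which also takes part in the activation of VEGFC, stood at 7.24, 7.12 and 6.52 FPKM, ADAMTS2 at 1.12, 0.890 and 0.574 FPKM, and ADAMTS14 below 1 FPKM. ADAMTS13, which cuts von Willebrand factor, stood at 1.84, 1.89 and 1.80 FPKM, while VWF itself stood at 4.89, 10.9 and 16.5 FPKM. ADAMTS18 stood at 1.30, 0.852 and 0.485 FPKM (-0.63) and ADAMTS19 at 0.933, 1.15 and 0.865 FPKM.

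The ADAMTS-like proteins have no protease domain and bind fibrillin in the matrix. ADAMTSL2 stood at 2.17, 3.89 and 5.34 FPKM in CD105neg, CD105low and CD105high (log2 fold change for CD105high against CD105neg, 1.002). ADAMTSL4 stood at 1.18, 0.533 and 0.157 FPKM (-0.91), with 16.1% of its sampled sequence shared, mostly with the antisense gene ADAMTSL4-AS1. These 2 genes ran in opposite orders, and the other 3 stayed at or below 0.315 FPKM.

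Of the inhibitors, TIMP3 was lower in the CD105low and CD105high libraries. TIMP3 (ENSG00000100234.11), which binds to the matrix and inhibits ADAM17 and the aggrecanases as well as MMPs, stood at 32.8, 20.9 and 15.6 FPKM in CD105neg, CD105low and CD105high (log2 fold change for CD105high against CD105neg, -1.03, and for CD105low against CD105neg, -0.62). TIMP1, a secreted inhibitor that acts poorly on MMP14, was the most abundant inhibitor, at 78.0, 70.3 and 62.8 FPKM (-0.31). TIMP2, which both inhibits MMP14 and links it to the MMP2 proenzyme, was low, at 2.40, 2.70 and 1.88 FPKM, and 13.9% of its sampled sequence is shared. RECK stood at 20.0, 24.2 and 21.4 FPKM, highest in CD105low, and TIMP4 at 0.154, 0.091 and 0.139 FPKM.

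Summed over each family, MMP genes stood at 152, 218 and 239 FPKM in CD105neg, CD105low and CD105high, and TIMP genes at 113, 94.0 and 80.4 FPKM. MMP14 alone gave most of the MMP sum in each library, and TIMP1 and TIMP3 nearly all of the TIMP sum. ADAM genes summed to 120.5, 137 and 140.0 FPKM and ADAMTS genes to 139, 135 and 127 FPKM, the latter with lower values of ADAMTS9 and higher values of ADAMTS4, ADAMTS10 and ADAMTS12 in CD105high. With each library scaled to an equal total the ADAMTS sums were 482, 474 and 478, and the MMP and TIMP sums kept their order. Each family sum is a sum of transcript levels and says nothing of enzyme activity, which also depends on proenzyme activation.

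**Figure D2:**
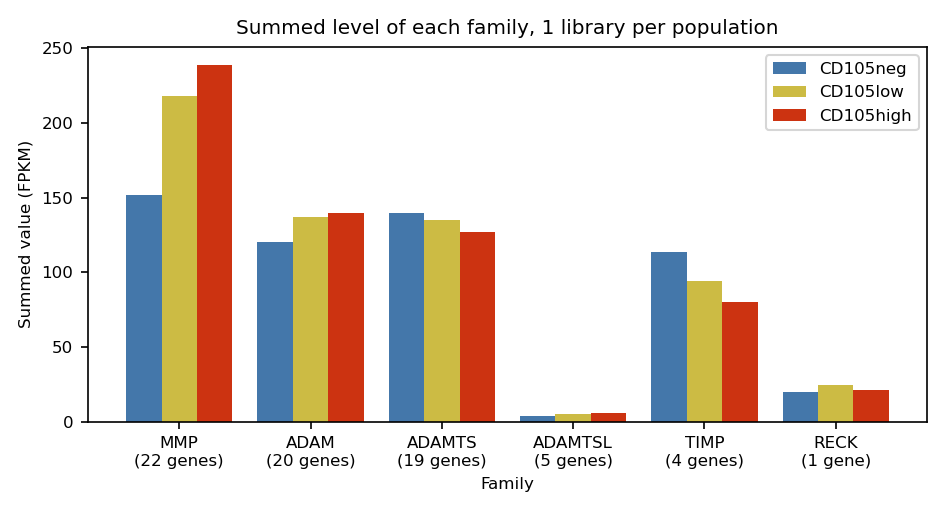
Summed deposited values (vertical axis, treated as FPKM) of all genes of each family, 1 bar for each library. The MMP bars go from 152 in CD105neg to 239 in CD105high and the TIMP bars from 113 to 80.4.

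Read against all genes, the share of these genes that were apart was above the background when CD105high was compared with CD105neg. On the value + 1 scale, 6 of the 35 measured genes were at least 1.5-fold higher in CD105high (ADAMTS4, MMP16, ADAMTSL2, ADAMTS12, MMP14 and ADAMTS10) and 6 at least 1.5-fold lower (ADAMTS9, TIMP3, ADAM8, ADAMTSL4, MMP17 and ADAMTS18); of all 11343 measured genes, 5.65% were higher and 6.88% lower. The 6 members make 17.1% in each direction. The median log2 fold change of the 35 was -0.05, with 15 above and 20 below 0, against -0.09 for all measured genes. ADAMTSL4, ADAMTS18, ADAMTS15 and ADAMTS2 passed the 1 FPKM filter only through CD105neg, where they are highest, so the filter favours a lower value in CD105high for them; the first 2 were 1.5-fold lower and the last 2 were not. The counts describe these libraries and support nothing by themselves. The count of lower members depended on the treatment of low values, and was 9 with a pseudocount of 0.1 and 2 with a pseudocount of 5, while that of higher members was 6 and 5. With a pseudocount of 5 in place of 1, ADAM8, ADAMTSL4, MMP17, ADAMTS18 and ADAMTSL2 were no longer 1.5-fold apart, and MMP17 and ADAMTS18 were not after centring on the median of all genes. Of the 17 members that reached 10 FPKM, 5 were higher and 2 lower, with a median of 0.22, against 6.2% and 6.4% of the 5919 such genes.

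For the genes higher in CD105high, the CD105low library lay on the side of CD105high. Against CD105neg, 5 of the 35 were at least 1.5-fold higher in CD105low (MMP16, ADAMTS4, ADAMTS12, MMP14 and ADAMTSL2). Only 1 was lower, TIMP3. The background was 4.13% higher and 2.18% lower, and the 1 lower gene (2.86% of the 35) is near that share. Of the 6 genes lower in CD105high, TIMP3 alone was thus 1.5-fold lower in CD105low. The median was 0.04, against 0.02 for all measured genes. ADAMTS9, with a log2 fold change of -0.58, fell just short of 1.5-fold in this pair, and reached it after centring (-0.59). With a pseudocount of 5, ADAMTS12, ADAMTSL2 and TIMP3 fell short as well. Both comparisons rest on 1 CD105neg library, and whatever sets it apart enters each of them.

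Between CD105high and CD105low, none of the 35 was at least 1.5-fold higher or lower, where 1.18% of all measured genes were higher and 2.19% lower; at these shares a count of 0 is near the background. The value + 1 scale also narrows the differences of low genes. With a pseudocount of 0.1, 5 members were lower in CD105high, namely ADAMTSL4 (-1.30), ADAM8 (-1.10), ADAMTS15, ADAMTS18 and ADAM33. No share over all genes is given at that pseudocount, so this count has no background beside it. The plain ratio of the CD105high to the CD105low value was 0.295 for ADAMTSL4 and 0.420 for ADAM8. On the value + 1 scale the widest difference in each direction was that of ADAMTS4 (0.51, and past 1.5-fold at 0.61 after centring) and of ADAMTS9 (-0.54), and the median was -0.11 against -0.10 for all genes. For all 12 genes that were 1.5-fold apart between CD105high and CD105neg, CD105low lay between the 2; of all 1421 genes so apart, 89.0% had CD105low in between, so this order is near that of genes at large.

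**Figure D3:**
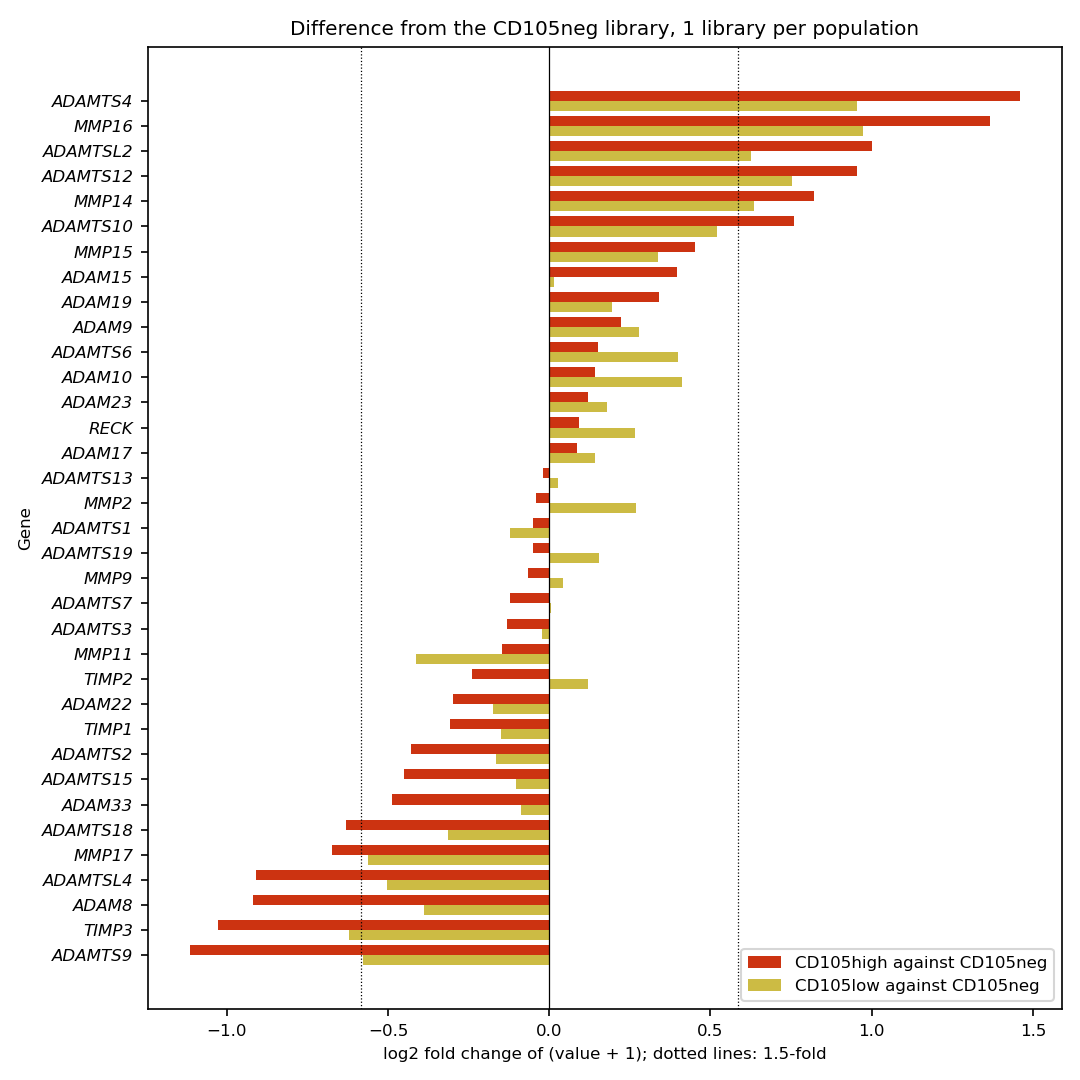
Log2 fold change of the value + 1 (horizontal axis) against the CD105neg library for the 35 measured genes, with red bars for CD105high and yellow bars for CD105low; dotted lines mark 1.5-fold. ADAMTS4 is at the top with 1.46 and ADAMTS9 at the bottom with -1.12 for CD105high.

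**Figure D4:**
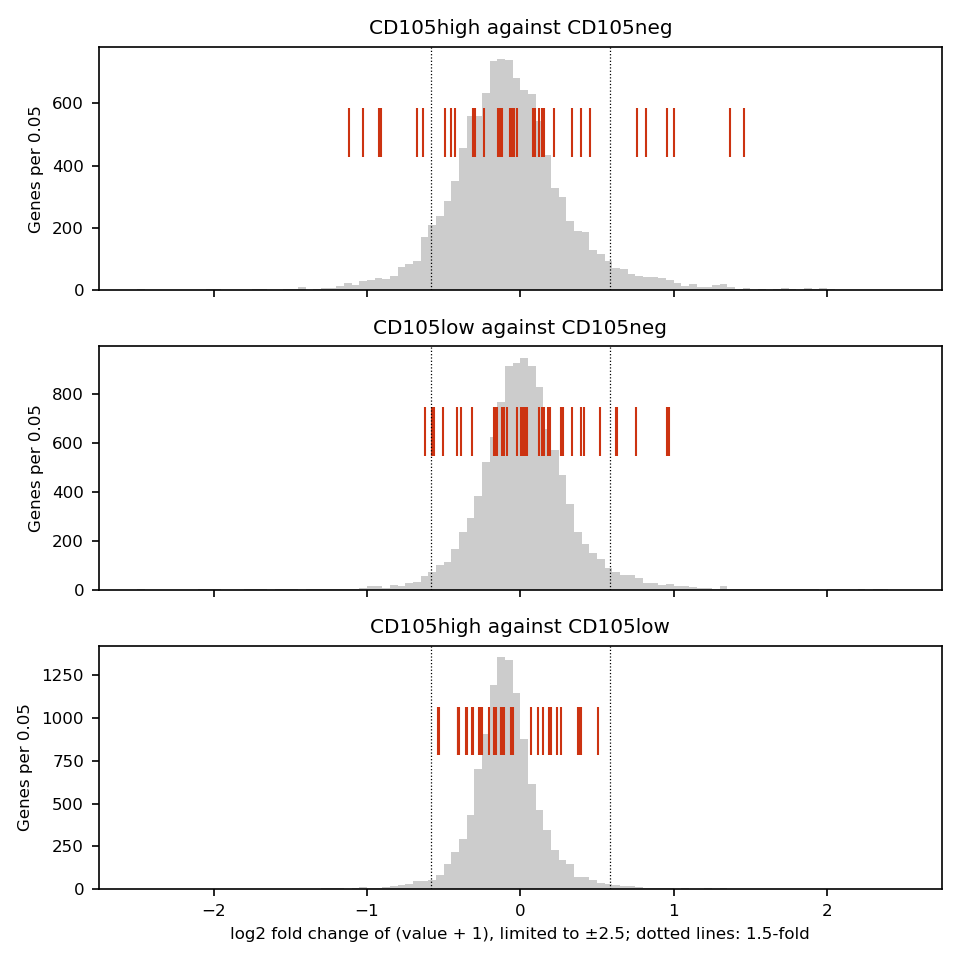
Number of measured genes (vertical axis, bins of 0.05) by log2 fold change of the value + 1 in each of the 3 pairs of libraries, in grey, with a red tick for each of the 35 metalloprotease and inhibitor genes. For CD105high against CD105neg, 6 ticks lie beyond the dotted 1.5-fold line on each side; for CD105high against CD105low none does.

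The partners of these enzymes were taken from 4 lists by known function. Of 18 activators and cofactors, 16 were measured; 3 were 1.5-fold or more higher in CD105high than in CD105neg and 1 lower, against 5.65% and 6.88% of all measured genes (median log2 fold change 0.17). The 1 lower gene is 6.25% of the list, near the share over all genes. PLAU, the urokinase that makes plasmin, an activator of MMP proenzymes, stood at 16.6, 29.4 and 35.2 FPKM in CD105neg, CD105low and CD105high (1.04), with 16.8% of its sampled sequence shared. TSPAN15 and TSPAN5 are tetraspanins that carry ADAM10 and steer it to different substrates. TSPAN15 stood at 16.0, 23.8 and 31.1 FPKM (0.92), and TSPAN5 at 42.8, 35.5 and 27.4 FPKM (-0.62). This pair ran in opposite orders, while ADAM10 itself lay within 1.5-fold in every pair of libraries. The other measured tetraspanins of the list, TSPAN14 (25.5, 33.8 and 35.6 FPKM), TSPAN17 and TSPAN33, were not 1.5-fold apart in any pair. PLAT, the tissue plasminogen activator, stood at 4.92, 6.89 and 9.60 FPKM (0.84).

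Of 10 genes listed as further inhibitors or clearance proteins, 8 were measured, 3 were at least 1.5-fold higher in CD105high and none was lower, beside 5.65% and 6.88% of all measured genes (median 0.38). A2M, the broad protease inhibitor of plasma, stood at 0.27, 1.91 and 5.08 FPKM (2.26), and TFPI2, an inhibitor of serine proteases, at 25.5, 48.6 and 53.7 FPKM (1.05). CAV1, a caveolin with a part in the uptake of MMP14, stood at 2.07, 3.38 and 4.24 FPKM (0.77). SPOCK2 stood at 0.43, 0.68 and 1.07 FPKM (0.53) and passed the 1 FPKM filter only through CD105high, where it is highest. Its place in the list does not show that it inhibits these proteases. TFPI2 and A2M were thus lowest in CD105neg, where TIMP3 was highest.

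Of 32 membrane proteins known to be shed by ADAMs or MMP14, 24 were measured; 11 were 1.5-fold or more higher in CD105high than in CD105neg and 1 was lower, where 5.65% and 6.88% of all measured genes were (median 0.48). ENG, the sort gene, was the furthest apart (2.25) and is not independent of the sort. NOTCH4 stood at 0.82, 1.72 and 3.48 FPKM (1.30), KIT at 6.76, 12.2 and 15.6 FPKM (1.10) and CDH5 at 48.0, 79.6 and 94.1 FPKM (0.96). Many of these substrates are endothelial genes, and 4 of them (CDH5, KDR, TEK and TIE1) are also among the endothelial markers.

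Of 21 matrix substrates, 18 were measured, 6 were at least 1.5-fold higher in CD105high and 3 were lower, with 5.65% and 6.88% over all measured genes (median 0.11). VWF is also among the endothelial markers, and COL1A1, COL1A2, COL3A1 and DCN are among the mesenchymal and mural markers. VWF (1.57) and the basement membrane collagen gene COL4A1, at 118, 179 and 273 FPKM (1.21), were higher. COL1A1, the main fibrillar collagen chain, stood at 21.4, 14.6 and 8.57 FPKM (-1.23), and COL18A1 at 52.3, 31.1 and 22.8 FPKM (-1.16), with 19.8% of its sampled sequence shared. VCAN, the substrate of ADAMTS4 and ADAMTS9, was chosen after its values were seen and stood at 11.9, 19.7 and 23.9 FPKM.

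**Figure D5:**
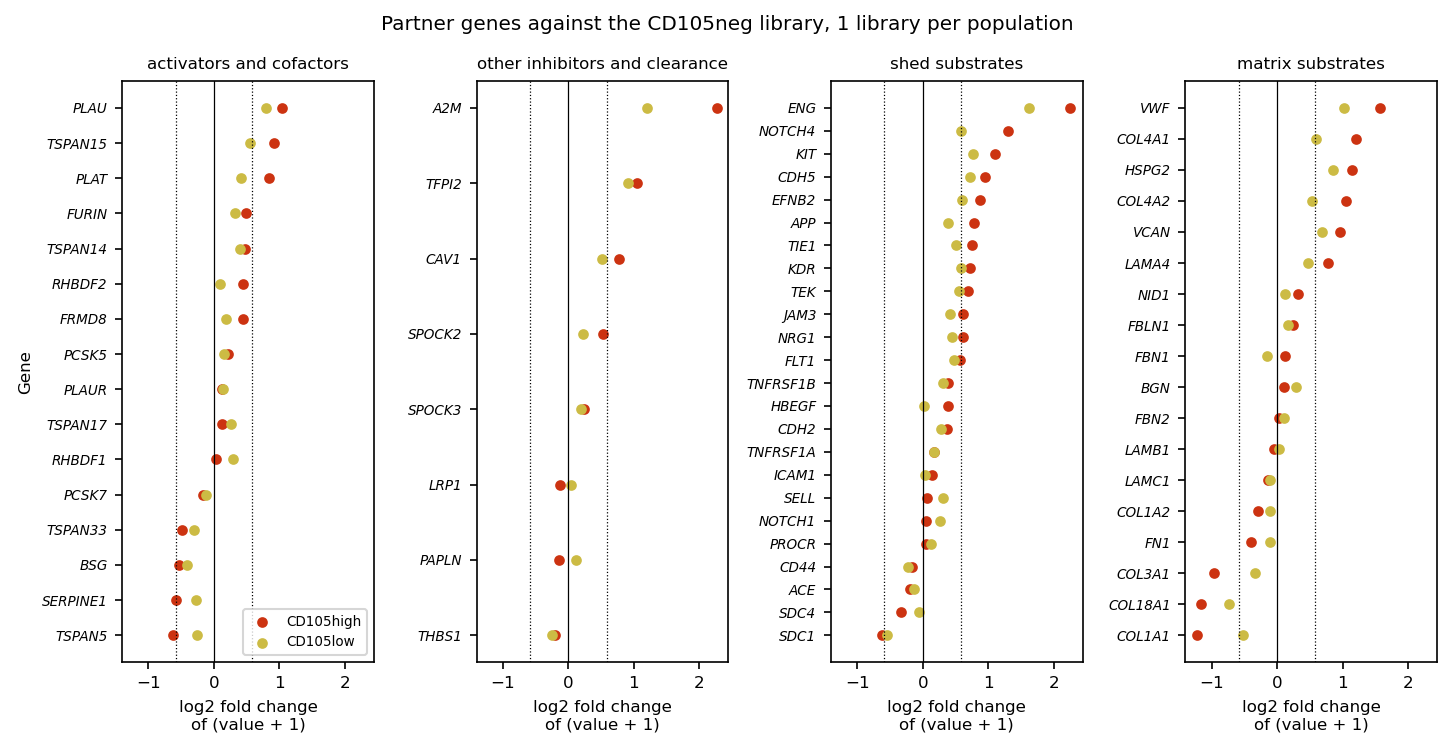
Log2 fold change of the value + 1 (horizontal axis) against the CD105neg library for the measured genes of the 4 partner lists, with red points for CD105high and yellow points for CD105low; dotted lines mark 1.5-fold. PLAU, A2M, ENG and VWF are the highest of their lists for CD105high.

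Markers of other cell types differed across the libraries. In the counts below CD105high is set against CD105neg, where 5.65% of all measured genes were higher and 6.88% lower. The mesenchymal and mural list (10 of 13 measured) summed to 520.4, 514 and 444 FPKM in CD105neg, CD105low and CD105high. In CD105high 5 of its genes were 1.5-fold or more below CD105neg, 1 was above and 4 were not 1.5-fold apart. PDGFRB, the furthest below, stood at 9.05, 4.99 and 2.74 FPKM, and THY1, the 1 above, at 33.6, 53.9 and 57.3 FPKM. The erythroid and megakaryocyte list (9 of 12 measured, SLC4A1 at 0) summed to 70.7, 26.5 and 13.2 FPKM and had 9 genes lower, and the leukocyte list (4 of 10 measured, MPO at 0) to 64.9, 54.6 and 43.1 FPKM with 2 lower. The pluripotent and epithelial list (9 of 10 measured, with no deposited value for LIN28A) summed to 393, 334 and 291 FPKM with 2 lower. The endoderm list (4 of 7 measured) summed to 9.57, 8.07 and 9.15 FPKM with 2 higher and 2 lower. Of the endothelial list, 10 of 12 were higher. These sums run in the same order as TIMP3, ADAMTS9 and ADAM8 for the mesenchymal, blood and pluripotent lists. The endothelial sum runs in the order of MMP14 and ADAMTS4. The sums were not scaled to equal library totals, and the mesenchymal sums of CD105neg and CD105low are so close that their order is not secure. The part of these lists in the differences of those genes was not tested. In RNA from whole populations, fewer cells of a type and less RNA per cell cannot be told apart.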

How the data were processed

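Expression was taken from 1 deposited table per library, for 18345 genes in CD105neg, CD105low and CD105high. The deposited values, whose unit neither labels nor headers name, were treated as FPKM: they are not whole, and the lowest values times transcript length fall on a step (51.2%, 46.8% and 47.4% of values within 0.06 steps of a multiple, against 7.66%, 9.17% and 8.62% for the median other step). TPM would show such a step too. BWA, Bowtie, RSEM and hg19 are named, per the submitters' processing notes, without version or role; filters and annotation are not stated. Per the labels' protocols, libraries came from 2 ug of total RNA with an Illumina TruSeq RNA kit. Reads of a gene and of an antisense partner may be mixed.

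Genes that reached 1 FPKM in any library were used. Fold changes are log2 ratios after adding a pseudocount of 1 to each value, so changes of low genes come out too small, and 1.5-fold was the call. With 1 library per group no test or error could be given. Shared sequence is the share of 50-base pieces, taken every 40 bases from GENCODE 29 transcripts, found in another gene. Promoter windows are from RefSeq. No coordinates were converted; protein sequences were not used here. Every measured member was named, ADAM10, ADAM17, MMP14, MMP2, MMP9, the TIMP genes and RECK whatever their values, and up to 4 genes of each partner list with the largest change between CD105high and CD105neg. The members and lists were chosen with earlier results of these data known. The computation was tested on simulated data. Python 3.11.15, pandas 2.3.3 and matplotlib 3.10.9 were used. Other pseudocounts, filters, folds and scalings were tried.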

Additional observations from a re-analysis of the deposited data

How the results depend on the processing

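The counts of genes 1.5-fold apart depend on how low values are treated, while no gene past 1.5-fold changed direction under another pseudocount or scaling. Scaling each library to a sum of 1000000 moved the median log2 fold change of all measured genes by 0.11 for CD105high against CD105neg. For that pair, the count of lower members, 6 as reported, ran from 2 to 9: it was 9 with a pseudocount of 0.1, 8 after scaling, 4 after centring, 2 with a pseudocount of 5, 2 in genes that reached 10 FPKM and 2 with a 2-fold rule, which left 3 higher. Its median, near 0, changed sign, to 0.22 at or above 10 FPKM, 0.040 after centring on the median of all genes and 0.058 after scaling. For CD105low against CD105neg, the lower count was 6 with a pseudocount of 0.1, 2 after centring, 3 after scaling, and 0 with a pseudocount of 5 or a 2-fold rule. The higher count was 3 with a pseudocount of 5 and 0 with a 2-fold rule, and the median 0.27 at or above 10 FPKM. For CD105high against CD105low, 1 member (ADAMTS4) was higher after centring or scaling, 5 were lower with a pseudocount of 0.1 and 2 after scaling. Shares over all genes are given above only for the main settings and, for CD105high against CD105neg, at or above 10 FPKM. The other counts here have no background beside them. Of the 66 measured partner genes, 28 were 1.5-fold apart between CD105high and CD105neg, and 12 were 2-fold apart; the settings for the partner lists were added after seeing the data. At or above 10 FPKM 17 members were counted in place of 35, and a pseudocount of 5 gives small values less weight. What moved the counts was not tested for any setting. Over the 108 fold changes of single genes, the side of 1.5-fold was kept by 95 with a pseudocount of 0.1, 100 with a pseudocount of 5, 104 after centring and 100 after scaling. ADAM8, ADAMTSL4, MMP17, ADAMTS18 and ADAMTSL2 fell short of 1.5-fold between CD105high and CD105neg with a pseudocount of 5, and MMP17 and ADAMTS18 also after centring. No paired analysis was possible because each group has 1 library. Counting error cannot be given, since the files hold no read counts.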
